A study of Mus musculus with 8 samples.

Results

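The proteasome genes examined here are the 48 mouse genes whose symbols begin with Psma, Psmb, Psmc, Psmd, Psme, Psmf or Psmg and go on with a number, out of 20887 genes with a matched probe. The rule uses symbols only, with no measured value. They encode the subunits of the proteasome, its activators, an inhibitor and most of its dedicated assembly chaperones. Psmc3ip and Psme3ip1, whose names begin the same way but which encode interacting proteins, were kept apart. Of 7 further names of this kind that had no matched probe, 6 are pseudogenes and the other is Psme2b, a copy of Psme2.

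RNA was taken from dendritic cells grown from the bone marrow of female C57BL/6 mice. The immature group was 4 samples collected on day 6 of culture with 10 ng/ml GM-CSF and IL-4. The LPS group was 4 samples of such cells that were then given 50 ng/ml LPS, a bacterial cell-wall component that dendritic cells sense through a Toll-like receptor, overnight and collected on day 7. Each sample was hybridised to its own one-colour Agilent array. No untreated day 7 sample was analysed here, so LPS and a further night in culture cannot be told apart. The labels number the samples but do not say whether they came from separate mice or cultures, so p-values measure the spread between these samples, which may be technical.

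The proteasome is the main protease of the cytosol and nucleus. Its 20S core is a barrel of alpha rings around beta rings, and 3 of the beta subunits, Psmb5, Psmb6 and Psmb7, carry the active sites. The 19S cap recognises, unfolds and admits ubiquitin-tagged proteins, while the 11S caps and PA200 open the core without ubiquitin or ATP. Dendritic cells are known for a second set of catalytic subunits, Psmb8, Psmb9 and Psmb10, which take the places of Psmb5, Psmb6 and Psmb7 in newly built cores. The resulting immunoproteasome favours peptides that fit MHC class I molecules, and the genes are classically induced by interferon.

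Levels are log2 signals relative to the 75th percentile of the array, and a log2 difference of 1 is a doubling. A gene was called when limma's adjusted p, taken over all 12706 tested genes, was under 0.05. By that rule 56.1% of all tested genes were called, 31.4% higher and 24.7% lower after LPS, so a call by itself was common. The 8 arrays lay on 1 slide and were scanned once, with the immature samples in row 1 and the LPS samples in row 2, so slide row and treatment cannot be told apart. No spot was saturated, and 47.5% to 51.3% of spots were well above background.

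Immature replicate 3 stood apart from the other immature arrays. It was the lowest of the 4 in 41 of 46 tested proteasome genes, against 5089 of 12706 tested genes. The median proteasome gene lay 0.30 log2 units lower on it than on the other immature arrays, while the median of all tested genes lay 0.02 lower. The gap was widest for the 19S subunits at -0.47 and the 19S chaperones at -0.52, and narrowest for the activators at -0.14 and the immunoproteasome subunits at -0.15. This array widened the immature spread of most proteasome genes and pulled their immature means down.

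Markers of other cell types were measured on the same arrays. All 8 dendritic cell markers were well above background in immature samples, with a summed linear signal of 1050 to 1114 times the 75th percentile there and 1118 to 1260 after LPS. In that list 3 were called higher after LPS and 4 lower, so the sum joins opposite changes. Ccr7 rose 4.35-fold, from a mean level of 6.75 to 8.87. The others called higher, Flt3 and Zbtb46, were too dim to raise the sum, with mean levels of 0.94 and -1.05 after LPS. Cd74, H2-Aa, Itgax and Cd209a fell, so the higher sum does not show that these markers rose together. Cd209a was not above background on any LPS array. The 7 markers of neutrophils and their precursors all fell, from a summed 675 to 785 in immature samples to 244 to 439 after LPS. Of 6 macrophage markers 1 rose and 3 fell, with sums of 355 to 423 and 324 to 382. Csf1r, by far the brightest of them, carried these sums and was not called. Mrc1 fell 18.7-fold, C1qa 4.70-fold and C1qb 4.37-fold, while Adgre1 rose 1.91-fold. Of 2 monocyte markers 1 fell, with sums of 29.3 to 32.5 and 12.8 to 16.2. All 3 markers of mast cells and basophils fell, with sums of 3.22 to 6.19 and 0.584 to 1.93. The sums of B cell, T cell, natural killer and erythroid markers reached at most 2.78 on any array, and Ncr1, a natural killer cell marker, was above background on 0 arrays. The part of these other cells in the results that follow was not tested.

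Of the 48 proteasome genes, 46 were well above background on all 8 arrays and were tested. The other pair was Psma8, an alpha subunit of testis, and Psmb11, the catalytic subunit of the thymoproteasome, which were above background on 0 of 8 arrays. After LPS 21 proteasome genes were called higher, 2 were called lower and 23 were not called. The 50.0% called was below the 56.1% of all tested genes, while the 45.7% called higher lay above the 31.4% of the background. That excess depended on the scaling. With scaling to the array median, without scaling and with scaling to the spike-ins, 8 of the 46 were called higher each time. Of all 12706 tested genes 2615, 2428 and 2869 were called higher in those settings, a larger share each time. The groups did not overlap in 23 of the 46 genes, against 52.4% of all tested genes, and the LPS arrays were the higher ones in 20 of the 23, against 30.1% of all tested genes. In RNA from whole cultures, a change in cell makeup and a change in RNA per cell cannot be told apart.

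**Figure D1:**
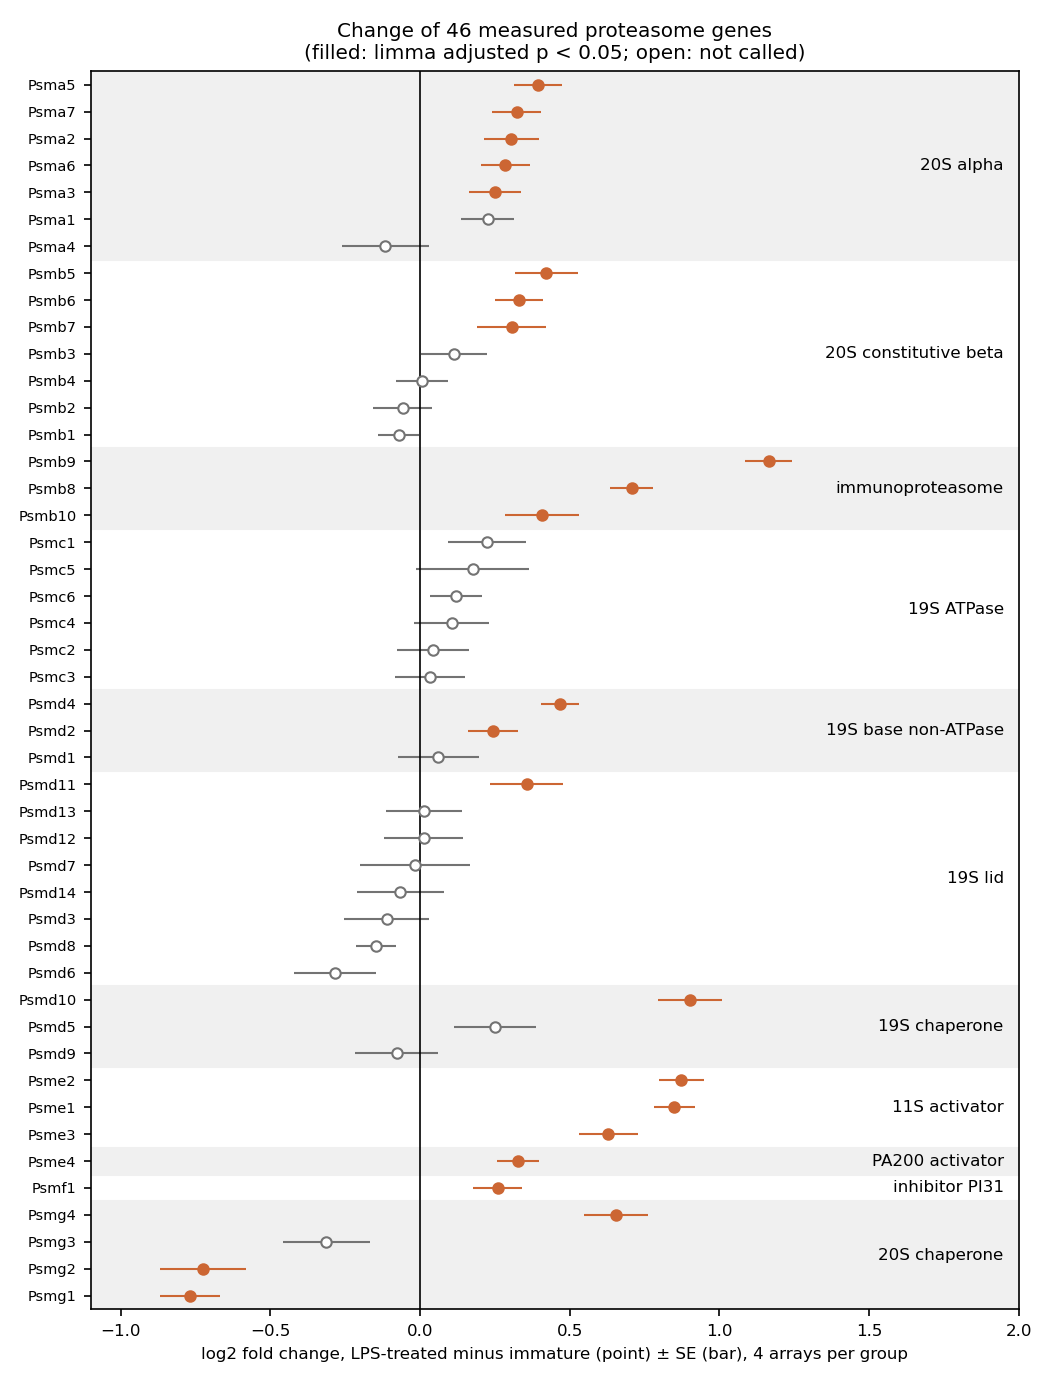
Log2 fold change of each of the 46 tested proteasome genes, LPS-treated minus immature, as points with the standard error as bars, grouped by the part of the proteasome they encode (filled, called at an adjusted p under 0.05; open, not called). Psmb9, Psmd10, Psme1 and Psme2 lie farthest to the right and Psmg1 and Psmg2 farthest to the left, while the 19S ATPases and most of the lid lie near 0 with the 75th-percentile scaling.

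By part of the particle, calls ranged from all members of the immunoproteasome and activators to none of the 19S ATPases in limma's test. The 3 immunoproteasome subunits and the 4 activators were called higher without exception, with median log2 changes of 0.71 and 0.74. Among the 7 alpha subunits 5 were called higher, with a median of 0.28. Among the 7 constitutive beta subunits 3 were called higher, with a median of 0.11 that turned to -0.06 with scaling to the array median and to -0.09 without scaling. Among the 17 subunits of the 19S cap 3 were called higher, with a median of 0.04 that lay below 0 under each of the other 5 scalings, down to -0.17 without scaling. The median of all tested genes was 0.06, and 31.4% of them were called higher and 24.7% lower. Without the immunoproteasome and 11S subunits, 15 of 40 genes were called higher and 2 lower, with a median of 0.12. The share called higher among those 40 was 37.5%, near that of all tested genes.

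Psmb9, the inducible partner of Psmb6, showed the largest rise of the 46. Its level was 4.95, 4.88, 4.98 and 5.06 on the immature arrays and 6.23, 6.20, 6.07 and 6.02 on the LPS arrays. The groups lay about a full log2 unit apart, with each LPS sample above each immature one. Psmb9 was 2.24-fold higher after LPS (log2 change 1.17 ± 0.08 SE, n = 4 per group, limma adjusted p = 1.07e-05).

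Psmb8, which replaces Psmb5 and carries the chymotrypsin-like site of the immunoproteasome, also rose. It was at 5.45, 5.47, 5.33 and 5.52 on the immature arrays and at 6.19, 6.12, 6.08 and 6.22 on the LPS arrays. The ranges were far apart and the spread within each group was small, with SDs of 0.08 and 0.07. The rise was 1.63-fold (log2 change 0.71 ± 0.07 SE, limma adjusted p = 9.54e-05).

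Psmb10, the counterpart of Psmb7, rose least of the 3. Its immature levels were 6.40, 6.35, 6.02 and 6.13 and its LPS levels 6.69, 6.75, 6.37 and 6.72. Here the groups overlapped, since LPS replicate 3 lay below immature replicate 1. The mean difference was 1.33-fold (log2 change 0.41 ± 0.12 SE, limma adjusted p = 0.0217). The call was lost without immature replicate 4 (adjusted p = 0.0582) or without LPS replicate 1 (0.0563), 2 (0.0601) or 4 (0.0535), and with scaling to the array median (0.209), to the spike-ins (0.129), without scaling (0.282) or with replicates 1 and 2 averaged (0.0603).

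The 3 constitutive catalytic subunits were called higher as well. Psmb5, the chymotrypsin-like subunit, was at 7.48, 7.55, 7.18 and 7.47 on the immature arrays and at 7.77, 7.89, 7.71 and 7.99 on the LPS arrays. The groups did not overlap, and the rise was 1.34-fold (log2 change 0.42 ± 0.11 SE, limma adjusted p = 0.00902). Its second probe gave a log2 change of 0.41. Psmb6, the caspase-like subunit, went from 6.71, 6.71, 6.45 and 6.61 to 6.89, 6.99, 6.94 and 7.0, again without overlap. That was a 1.26-fold rise (log2 change 0.33 ± 0.08 SE, limma adjusted p = 0.00847). Psmb7, the trypsin-like subunit, was at 3.76, 3.78, 3.29 and 3.62 and then at 3.92, 3.88, 3.88 and 3.99. Its groups did not overlap, but it stood at the threshold, 1.24-fold higher with a limma adjusted p of 0.0492.

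The 4 beta subunits without an active site were not called with the 75th-percentile scaling. Their log2 changes were 0.11 for Psmb3, 0.01 for Psmb4, -0.06 for Psmb2 and -0.07 for Psmb1. The calls of Psmb5, Psmb6 and Psmb7 were lost with scaling to the array median, to the spike-ins or without scaling, and that of Psmb6 with normexp background correction as well (adjusted p = 0.0548). Psmb1 was called lower under array-median scaling (-0.25, adjusted p = 0.0433) and without scaling (-0.28, 0.0229). Psmb7 held its call in 0 of the 5 other scalings, with 0.0688 for scaling to probes detected on all arrays and 0.0817 for quantile normalization, and lost it in 5 further settings that kept all 8 arrays, among them normexp (0.117) and the replicate block (0.0651). It was also lost without immature replicate 4 (adjusted p = 0.089) and without LPS replicate 1 (0.097), 2 (0.0822), 3 (0.0787) or 4 (0.104).

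**Figure D2:**
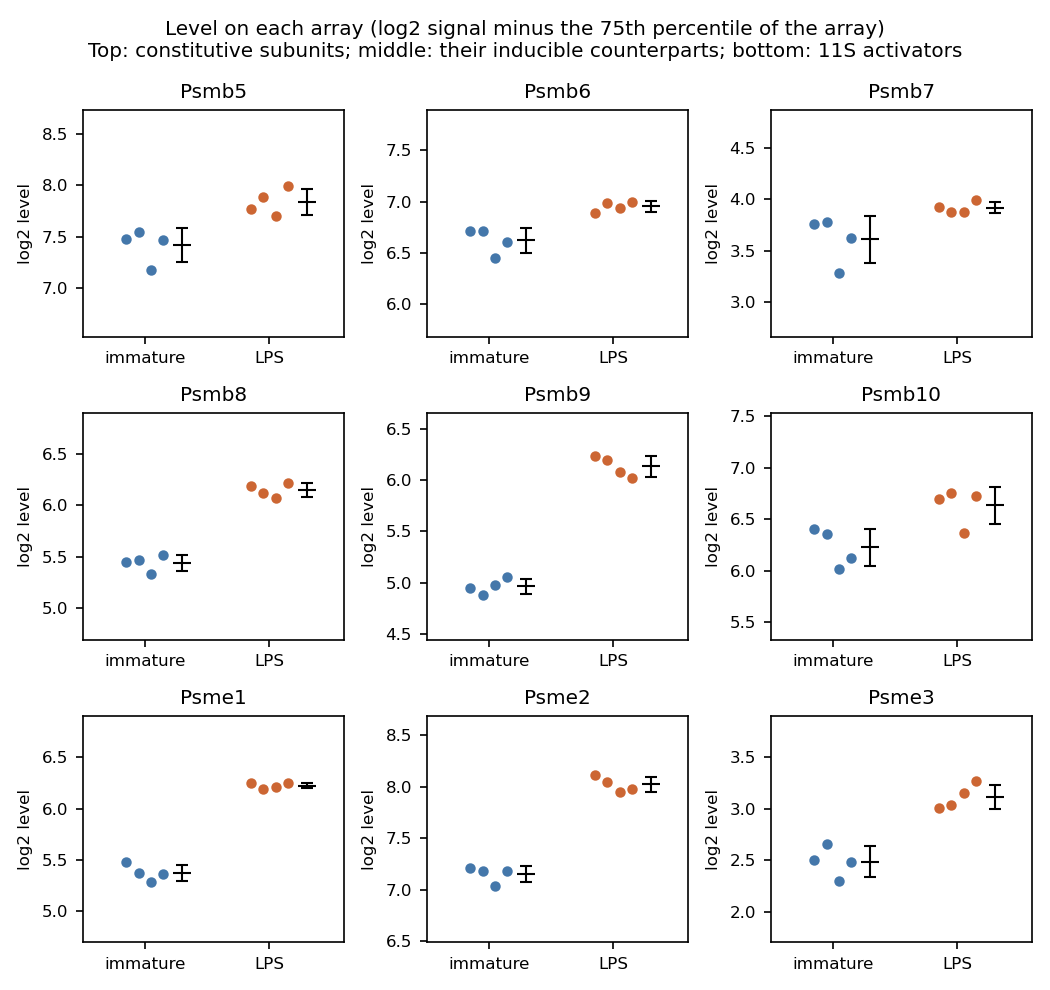
Level of the 3 constitutive catalytic subunits (top), their inducible counterparts (middle) and the 11S activators (bottom) on each of the 4 immature and 4 LPS arrays, as log2 signal minus the 75th percentile of the array, with the group mean and SD beside the points; every panel spans the same number of log2 units. The groups are separate in every panel but that of Psmb10, where LPS replicate 3 lies among the immature values.

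Because an inducible subunit takes the place of a constitutive one, the change of each pair was compared within arrays. The log2 difference of the 2 genes was taken on each array, in which a scaling constant of the array cancels. Levels of different probes cannot be set against each other, so only the shift of this difference between the groups was tested. The 5 shifts were tested by two-sided exact permutation tests over the 8 arrays, whose smallest possible p is 0.0286, with p adjusted over the 5 pairs.

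Psmb9 rose more than Psmb6 by 0.83 ± 0.11 (SE) log2 units, which is 1.78-fold. Relative to the immature mean, the within-array differences were -0.11, -0.18, 0.18 and 0.11 on the immature arrays and 1.00, 0.87, 0.79 and 0.68 on the LPS arrays. The groups were far apart, and the exact permutation p was the smallest possible, 0.0286, or 0.0714 adjusted. Psmb8 rose more than Psmb5 by 0.29 ± 0.07 log2 units, or 1.22-fold, with values of -0.05, -0.10, 0.13 and 0.03 against 0.39, 0.20, 0.35 and 0.21. These groups did not overlap either, with the same p of 0.0286 in the exact test and 0.0714 adjusted. Psmb10 and Psmb7 differed in their change by 0.10 ± 0.10, with overlapping groups (exact permutation p = 0.371, adjusted 0.371). The size of that difference does not show that the pair changed alike. In this design no pair could have passed the adjusted threshold unless at least 3 of the 5 had reached the smallest p.

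**Figure D3:**
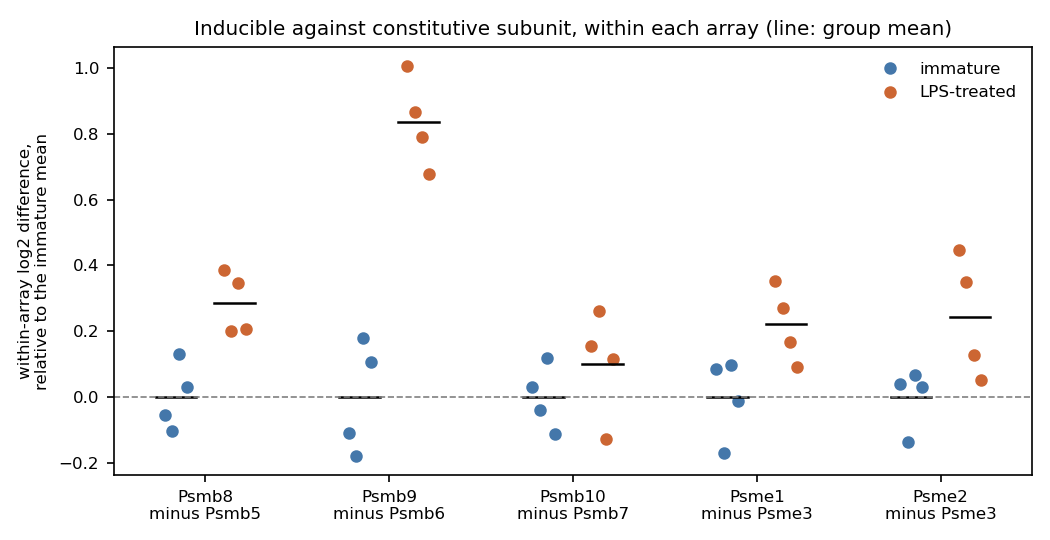
Within-array log2 difference between the members of each of the 5 pairs, relative to the mean of the immature arrays, for the 4 immature and 4 LPS arrays, with lines at the group means. The LPS arrays lie above the immature arrays without overlap for Psmb9 minus Psmb6 and Psmb8 minus Psmb5, and overlap with them in the other 3 pairs.

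All 4 activators were called higher. Psme1 and Psme2 encode the alpha and beta subunits of PA28, the 11S cap of the cytosol that is known for its induction by interferon. Psme1 was at 5.48, 5.38, 5.29 and 5.36 on the immature arrays and at 6.25, 6.19, 6.21 and 6.25 on the LPS arrays. The LPS samples were nearly level, with an SD of 0.03, and the groups lay well apart. Psme1 was 1.80-fold higher (log2 change 0.85 ± 0.07 SE, limma adjusted p = 2.62e-05).

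Psme2 was at 7.21, 7.19, 7.03 and 7.18 and then at 8.12, 8.05, 7.95 and 7.98. It was 1.83-fold higher without overlap (log2 change 0.87 ± 0.07 SE, limma adjusted p = 3.67e-05), and its second probe gave 1.13. Signal from its near copy Psme2b, which had no probe of its own in the match, cannot be told apart from that of Psme2.

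Psme3 encodes PA28 gamma, the 11S cap of the nucleus. It went from 2.50, 2.66, 2.30 and 2.48 to 3.0, 3.04, 3.15 and 3.27. The groups did not overlap and the rise was 1.55-fold (log2 change 0.63 ± 0.10 SE, limma adjusted p = 0.000911). Within arrays Psme1 rose more than Psme3 by 0.22 ± 0.08 and Psme2 more than Psme3 by 0.24 ± 0.10 log2 units, with overlapping groups in both (exact permutation p = 0.0571 each, adjusted 0.0714).

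Psme4 encodes PA200, a nuclear activator built as a single large chain. It was at 0.13, 0.28, 0.08 and 0.11 and then at 0.54, 0.47, 0.44 and 0.47, a 1.25-fold rise without overlap (limma adjusted p = 0.00481). The second probe of Psme4 gave a log2 change of 0.17 that was not called (adjusted p = 0.245), and the call of the first was lost with scaling to the array median (0.192), to the spike-ins (0.132) or without scaling (0.301). Psmf1 encodes PI31, first described as an inhibitor of the core. It was at 0.91, 0.98, 0.70 and 0.76 and then at 1.07, 1.05, 1.16 and 1.09, a 1.2-fold rise without overlap (limma adjusted p = 0.0268). Psmf1 failed the threshold without immature replicate 4 (0.0715) and without LPS replicate 1 (0.054), 3 (0.0675) or 4 (0.0506). It also failed with scaling to the array median (0.527), to the spike-ins (0.307) or without scaling (0.7), where the log2 change fell to 0.05, and with normexp (0.116), the replicate block (0.0729) or replicates 1 and 2 averaged (0.0556).

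Stretches of 280 bases around the start sites are given for 4 of the genes that rose, as examples of the sequence features counted across the family. They were picked among genes that rose and are not every gene with a match. Psmg1, called lower, also had a GAS match, and Psmb3 and Psmd9, not called, had an ISRE core. Matches to the kB motif are not marked. Psmb8 and Psmb9 lie in the MHC class II region of chromosome 17 with Tap1 and Tap2, the peptide transporter genes, in the gene order Psmb9, Tap1, Psmb8, Tap2. Psme1 and Psme2 are separated only by Emc9 on chromosome 14. Each stretch runs 5′ to 3′ on the strand of the gene, from 250 bases before the RefSeq start to 30 bases after it (build GRCm38.p6). Capitals mark a GAS match (TTCNNNGAA, the gamma-interferon activated site) in Psmb8, an ISRE core match (GAAA, any 2 bases, GAAA, the form bound by interferon regulatory factors) in Psme1, where it reads on the other strand, and in Psmg4, and in Psmb9 the 25 bases that lie beyond the start of Tap1.
Psmb8, chr17:34197945-34198224, plus strand: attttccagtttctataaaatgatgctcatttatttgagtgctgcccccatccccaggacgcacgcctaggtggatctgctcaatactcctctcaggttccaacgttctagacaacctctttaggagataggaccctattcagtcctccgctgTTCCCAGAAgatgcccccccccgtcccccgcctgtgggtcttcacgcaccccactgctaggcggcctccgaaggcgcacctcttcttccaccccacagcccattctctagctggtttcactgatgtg
Psmb9, chr17:34187301-34187580, minus strand: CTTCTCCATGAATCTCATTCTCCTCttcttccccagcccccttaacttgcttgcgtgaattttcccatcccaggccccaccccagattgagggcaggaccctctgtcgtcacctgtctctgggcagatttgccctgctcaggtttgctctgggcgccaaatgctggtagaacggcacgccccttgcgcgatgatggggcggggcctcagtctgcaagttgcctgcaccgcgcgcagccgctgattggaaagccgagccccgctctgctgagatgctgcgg
Psme1, chr14:55578244-55578523, plus strand: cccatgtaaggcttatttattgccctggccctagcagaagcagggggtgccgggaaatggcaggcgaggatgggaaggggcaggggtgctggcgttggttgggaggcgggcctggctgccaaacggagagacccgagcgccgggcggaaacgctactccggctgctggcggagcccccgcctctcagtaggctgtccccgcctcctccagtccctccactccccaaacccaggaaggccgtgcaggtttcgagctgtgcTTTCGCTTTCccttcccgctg
Psmg4, chr13:34162714-34162993, plus strand: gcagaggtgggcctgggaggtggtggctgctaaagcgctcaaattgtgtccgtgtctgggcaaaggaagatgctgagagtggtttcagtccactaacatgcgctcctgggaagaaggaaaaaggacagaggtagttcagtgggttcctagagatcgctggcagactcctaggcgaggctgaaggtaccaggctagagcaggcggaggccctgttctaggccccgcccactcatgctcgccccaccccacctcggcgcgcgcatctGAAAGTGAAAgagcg

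Psmb9 and Tap1 are transcribed away from each other from starts that lie 226 bases apart, so the sequence shown for Psmb9 is also the promoter of Tap1 read backwards. Tap1 rose 3.50-fold (log2 change 1.81 ± 0.07 SE) and Psmb9 2.24-fold on these arrays. The GAS match of Psmb8 begins 97 bases before its start, while the ISRE core matches of Psme1 and Psmg4 begin 10 and 16 bases after theirs. None of these 3 matches overlapped a match to another of the 4 motifs searched.

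Both strands of the RefSeq promoter of each gene, 250 bases before to 50 after the start, were searched in 40 of the 48 proteasome genes and in all 27025 genes of the table. The ISRE core was present in 5 of the 40, or 12.5%, against 3.99% of all genes. These were Psmb3, Psmd4, Psmd9, Psme1 and Psmg4. GAS was present in 3, or 7.50%, against 9.55% of all genes, namely in Psmb8, Psmd2 and Psmg1. A loose kB motif (GGG, any 5 bases, CC) was present in 22, or 55.0%, against 53.5%. The antioxidant response element core (TGACNNNGC), a form read by the Nrf family, was present in 6, or 15.0%, against 14.0%. These were Psmb5, Psmb6, Psmc6, Psmd12, Psmd9 and Psme4. Of the 40 genes 20 were called higher, and so were 3 of the 5 with an ISRE core, 2 of the 3 with GAS, 12 of the 22 with kB and 3 of the 6 with the antioxidant motif. A match describes letters in this window and is not shown to be a bound site.

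The alpha subunits form the outer rings of the core and gate its entrance. Psma5 rose most among them, from 5.22, 5.28, 5.09 and 5.20 on the immature arrays to 5.59, 5.70, 5.46 and 5.62 on the LPS arrays. The groups did not overlap, and the rise was 1.31-fold (log2 change 0.39 ± 0.08 SE, limma adjusted p = 0.00335). Psma7, Psma2, Psma6 and Psma3 were also called higher, with log2 changes of 0.32, 0.31, 0.28 and 0.25. Psma1 was at 0.23 (adjusted p = 0.0593) and Psma4 at -0.12 (0.522), and neither was called.

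All 5 alpha calls were lost with scaling to the array median, to the spike-ins or without scaling, when the median of the 7 was 0.11, 0.21 and 0.08. Psma3 was lost in the remaining 2 scalings too, to probes detected on all arrays (adjusted p = 0.0587) and by quantiles (0.0625), as well as with normexp (0.0911), no filter on dim probes (0.0552) and the replicate block (0.061). With replicates 1 and 2 averaged Psma2 (0.0769), Psma3 (0.0797) and Psma6 (0.0708) were lost, and Psma2 was lost with normexp (0.0823). Psma2 was also lost without LPS replicate 1 (adjusted p = 0.0581) or 2 (0.0642). Psma3 was lost without immature replicate 4 (0.0746) and without LPS replicate 1 (0.0684), 2 (0.0693), 3 (0.0528) or 4 (0.0839), and Psma1 was called without LPS replicate 3 (0.0353).

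Of the 17 subunits of the 19S cap 3 were called higher, or 17.6%, against 31.4% of all tested genes. A subunit that was not called is not shown to be unchanged. The 6 ATPases of the cap, Psmc1 to Psmc6, which form the ring that unfolds the substrate, had log2 changes from 0.03 for Psmc3 to 0.22 for Psmc1. None was called in limma's test, and the groups overlapped in each. Second probes, also not called, gave -0.35 for Psmc3, 0.10 for Psmc1 and 0.02 for Psmc2. On that of Psmc3, LPS replicate 4 lay at 3.75, against 4.70 to 4.73 on the other LPS arrays. Of the 3 other base subunits Psmd4 and Psmd2 were called. Psmd4, the ubiquitin receptor also known as Rpn10, rose most in the cap. It went from 5.91, 5.83, 5.82 and 5.78 to 6.34, 6.28, 6.33 and 6.26 with very little spread in either group. The rise was 1.38-fold (log2 change 0.47 ± 0.06 SE, limma adjusted p = 0.000426). Psmd2, a scaffold of the base, had a log2 change of 0.24 ± 0.08 (limma adjusted p = 0.0361), and Psmd1 one of 0.06.

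In the lid, which holds the deubiquitinase Psmd14, 1 of 8 subunits was called. Psmd11, a scaffold subunit, was at 2.46, 2.58, 2.05 and 2.34 and then at 2.61, 2.63, 2.77 and 2.84. The groups did not overlap, although immature replicate 2 came close to the LPS range, and the rise was 1.28-fold (limma adjusted p = 0.0354). The other lid subunits ranged from -0.28 for Psmd6 to 0.01 for Psmd13, with Psmd14 at -0.07. Psmd8 was at -0.15 (adjusted p = 0.0947), with each LPS array below each immature one.

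The calls of Psmd2 and Psmd11 were lost in all 5 other scalings, with adjusted p of 0.0586 to 0.798 and 0.0507 to 0.399, with normexp background correction (0.0948 and 0.097) and with the replicate block (0.06 and 0.0803). Psmd2 was also lost without the filter on dim probes (0.0563), with replicates 1 and 2 averaged (0.0919), without immature replicate 1 (adjusted p = 0.0653) or 4 (0.0597) and without LPS replicate 1 (0.0916), 2 (0.063), 3 (0.0552) or 4 (0.0751). Psmd11 was also lost without immature replicate 4 (0.0746) and without LPS replicate 2 (0.0524), 3 (0.08) or 4 (0.0851). Psmd6 was called lower without immature replicate 3, at -0.40 (0.0113). Both Psmd6 and Psmd8 were called lower in 4 of 5 other scalings.

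Assembly factors moved in opposite directions. Psmd10, also known as gankyrin, is a chaperone that holds a 19S ATPase before the base is complete. It was at 1.93, 2.07, 2.07 and 1.92 and then at 2.88, 3.09, 2.64 and 2.99, with the groups well apart. Psmd10 was 1.87-fold higher (log2 change 0.90 ± 0.11 SE, limma adjusted p = 0.000198), and its second probe gave 1.06. The other 19S chaperones Psmd5 and Psmd9 had log2 changes of 0.25 (0.151) and -0.08 (0.657) and were not called. A second probe of Psmd9 gave a log2 change of 0.20, also not called.

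The chaperones of the 20S core work as pairs, Psmg1 with Psmg2 and Psmg3 with Psmg4, which guide the alpha ring together. Psmg1 was at 4.32, 4.39, 4.07 and 4.41 on the immature arrays and at 3.46, 3.54, 3.43 and 3.68 on the LPS arrays. The LPS samples lay well below the immature ones, and the fall was 1.70-fold (log2 change -0.77 ± 0.10 SE, limma adjusted p = 0.000347). Its second probe gave -0.82. Its partner Psmg2 went from 1.92, 1.94, 1.32 and 1.86 to 1.06, 1.1, 0.91 and 1.07. It was 1.65-fold lower without overlap (log2 change -0.73 ± 0.14 SE, limma adjusted p = 0.00299), with immature replicate 3 the closest to the LPS range. Psmg1 and Psmg2 were the only proteasome genes called lower with the 75th-percentile scaling, against 24.7% of all tested genes.

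In the other pair Psmg4 rose, from 2.27, 2.30, 2.15 and 2.22 to 3.07, 3.05, 2.77 and 2.67. That was 1.57-fold without overlap (log2 change 0.65 ± 0.11 SE, limma adjusted p = 0.00109). Its partner Psmg3 was at 2.80, 2.95, 2.23 and 2.59 and then at 2.34, 2.39, 2.27 and 2.32. Immature replicate 3 lay below the LPS samples and the other 3 above them, and Psmg3 was not called (log2 change -0.31 ± 0.15 SE, limma adjusted p = 0.0983). Without that array Psmg3 was called lower, at -0.45 (adjusted p = 0.00464). It was also called lower in 3 of the 5 other scalings, at -0.49 with the array median (0.0347), -0.36 with probes detected on all arrays (0.0459) and -0.52 without scaling (0.0247).

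**Figure D4:**
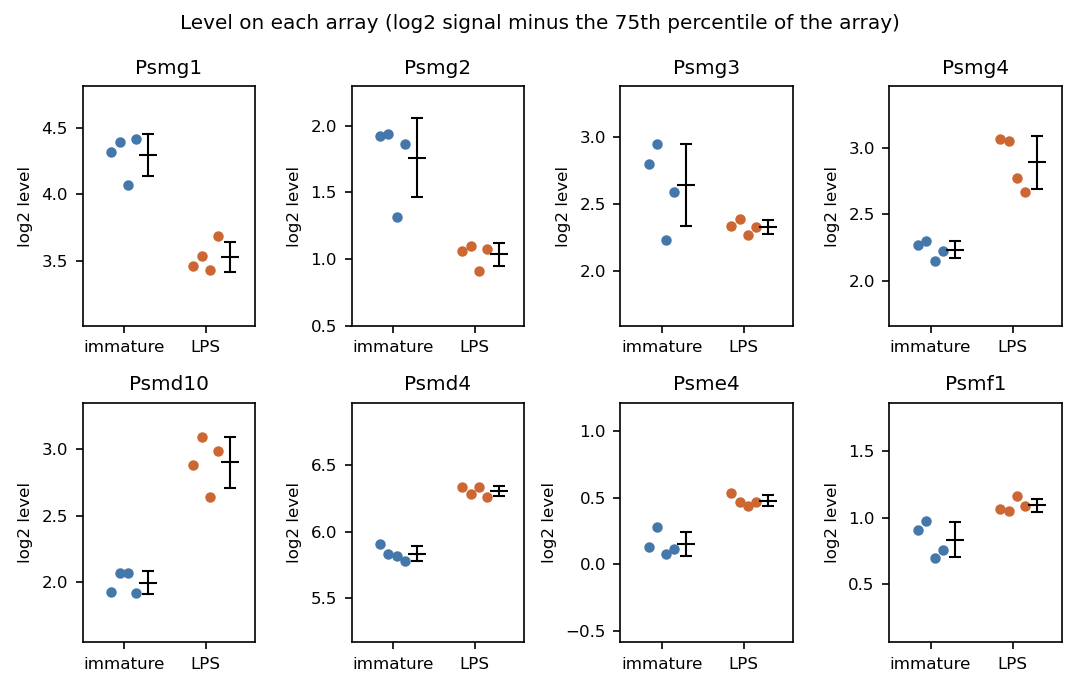
Level of the 4 chaperones of the 20S core (top) and of Psmd10, Psmd4, Psme4 and Psmf1 (bottom) on each of the 4 immature and 4 LPS arrays, as log2 signal minus the 75th percentile of the array, with the group mean and SD. Psmg1 and Psmg2 are lower and Psmg4 and Psmd10 higher on every LPS array than on every immature array, and the low immature point in the panels of Psmg2 and Psmg3 is replicate 3.

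How far these changes held with other scalings separated the family into 2 sets. Psmb8, Psmb9, Psme1, Psme2, Psme3, Psmd4, Psmd10 and Psmg4 were called higher in all 19 alternative settings run, 5 of them other scalings and 8 of them with 1 array left out, and Psmg1 and Psmg2 were called lower in all 19. The smallest rise among these settings was 0.96 log2 units for Psmb9, 0.50 for Psmb8, 0.64 for Psme1, 0.67 for Psme2, 0.69 for Psmd10, 0.45 for Psmg4, 0.42 for Psme3 and 0.26 for Psmd4, whose rise was 0.47 with the 75th percentile. The other 13 genes called higher lost the call in at least 1 other scaling. With scaling to the array median or without scaling the median of all tested genes itself moved by -0.17 and -0.21, and the 75th percentile of the signal was 469 ± 18.5 (SD, n = 4) on immature arrays and 406 ± 13.4 on LPS arrays.

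**Figure D5:**
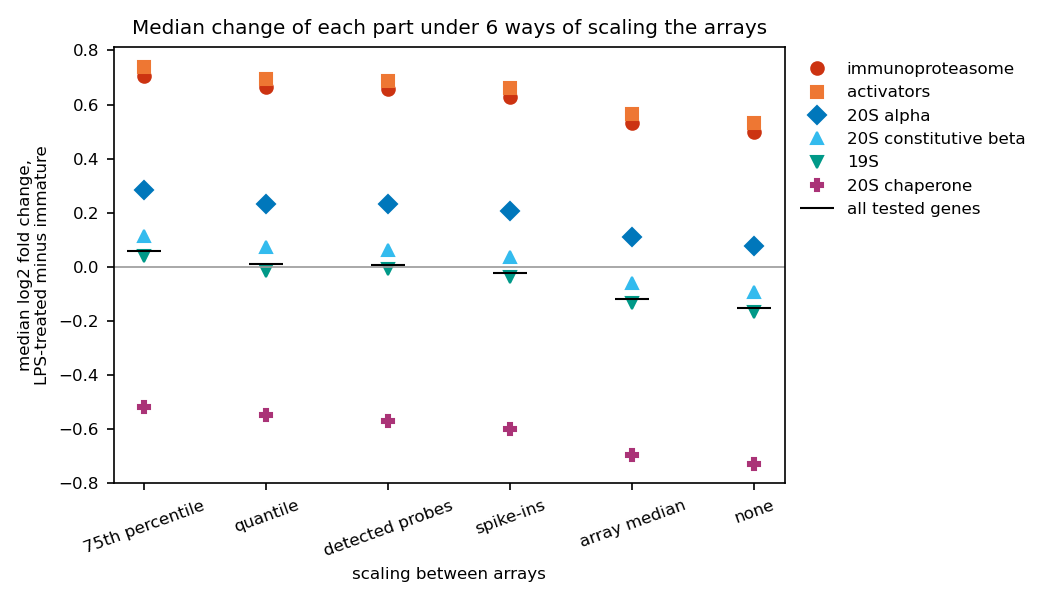
Median log2 fold change, LPS-treated minus immature, of 6 parts of the proteasome and of all tested genes (black lines) under 6 ways of scaling the arrays. The immunoproteasome and activator medians stay at 0.50 or more, the 20S chaperone median stays at -0.52 or less, and the 20S constitutive beta median lies below 0 with scaling to the array median and without scaling.

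Genes that work with the proteasome outside this family were counted by list. The lists were chosen with earlier results of these data known, so their counts are descriptions and not tests. Of all tested genes 31.4% were called higher and 24.7% lower after LPS. Of 17 tested partners, some of which deliver substrates or trim ubiquitin, 1 rose and 3 fell. The deubiquitinase Usp14 fell 1.51-fold (log2 change -0.59 ± 0.15 SE, limma adjusted p = 0.00847), and the shuttle Rad23b fell 1.31-fold (-0.39 ± 0.09). The stress-induced partner Zfand2a rose 1.68-fold (0.75 ± 0.07, limma adjusted p = 6.73e-05). Pomp, the maturation factor of the 20S core, was at 0.28 ± 0.14 and was not called (0.115). Adrm1 and Sem1, 19S subunits whose symbols lie outside the rule and which were picked out after their values were seen, were at -0.04 and 0.06 and were not called.

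A list of 8 genes covered the route by which the factor Nrf1 restores proteasome genes when the proteasome is impaired. It also held Nfe2l2 and Keap1, which belong to the related Nrf2 route. Of the 8, 2 rose and 1 fell, where 31.4% of all tested genes were called higher and 24.7% lower. Nfe2l1, which encodes Nrf1, rose 1.6-fold (log2 change 0.68 ± 0.08 SE). Keap1 rose by 0.27 and Sel1l fell by 0.39 log2 units.

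Among 11 interferon and NF-kB regulators 10 rose, with a median log2 change of 1.31. Here too the shares over all tested genes were 31.4% called higher and 24.7% lower. Since this list and the next were chosen with earlier results known, an excess over those shares is not evidence. Irf8 rose 4.25-fold (log2 change 2.09 ± 0.18 SE) and Irf1 1.83-fold (0.87 ± 0.16), while Irf2 was not called. A further list of 11 genes encode class I molecules or help to load them with the peptides that proteasomes make. Of these 8 rose and 1 fell, with a median of 0.82. Tap1 was at 1.81, Tapbp at 1.35 ± 0.08 and Tap2 at 0.82 ± 0.09, and Canx, a chaperone of the endoplasmic reticulum, fell by 0.24.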

How the data were processed

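Total RNA was labelled with Cy3 and hybridised to one-colour arrays, per the labels' protocols, and read with Agilent Feature Extraction 11.0.1.1, per the submitters' processing notes. Per the file headers the deposited values are processed signal intensities, together with median intensities of spot and background and flags of 0 or 1. No scaling between arrays is recorded there. Each array has 59305 spots, and the number of arrays limits the precision.

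Outlier-flagged spots (122 to 206 on each array) were dropped, log2 intensities were averaged per probe, and the 75th percentile of non-control spots was subtracted. Of 55681 probes, 27509 matched 1 RefSeq symbol by accession, and each gene took its brightest probe. Genes well above background on all 4 arrays of a group were tested with limma 3.58.1 in R 4.3.3 (lmFit, eBayes, two-sided, Benjamini-Hochberg, 0.05). Pairs were tested by exact permutation (70 arrangements). The fit, tested on simulated data for 12706 genes, recovered 37% of changes of 0.5 and 82% of changes of 1 log2 unit. Only 100 genes of each size were changed there, against 7124 genes called in the data. The adjusted p is stricter with so few changes, so these shares do not give the power of the fit here. Samples were not treated as paired by number. Correlations of deviations were -0.10 to 0.19 for the same number and -0.16 to 0.27 for other numbers. They showed no pairing but cannot exclude it.

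The proteasome genes and the gene lists were chosen with earlier results of these data known. Genes named in full were the catalytic subunits, activators, Psmf1 and 20S chaperones, and in each other part the called gene with the largest change each way. From each related list the largest changes were named, with Pomp, Nfe2l1, Irf1, Tap1 and Tap2, except for a gene that is not reported here. Psma8 and Psmb11 were not tested. Alternatives covered scaling, background correction, the filter, probe choice, outlier spots, a replicate block and leaving out each array.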

Additional observations from a re-analysis of the deposited data

Results flagged for a closer look

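In 3 of 92 groups of 4 arrays, 1 array lay far from the other 3 by Dixon's ratio of gap to range. Chance gives about 1 in 20 such groups. Psmb10 on LPS replicate 3 had a ratio of 0.840, with a level of 6.37 against 6.69 to 6.75 on the other LPS arrays. Psme2 on immature replicate 3 had a ratio of 0.838, at 7.03 against 7.18 to 7.21. Psmg2 on immature replicate 3 had a ratio of 0.878, at 1.32 against 1.86 to 1.94. Immature replicate 3 is thus the low array in 2 of the 3.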

How the results depend on the processing

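With scaling to the array median, no scaling and scaling to the spike-ins (chosen after seeing the data), 8 proteasome genes each time were called higher in place of 21. Of all 12706 tested genes 2615, 2428 and 2869 were called higher in these settings, in place of 3988. The count called lower, 2, became 6 with the array median, 6 without scaling, 5 with scaling to probes detected on all arrays and 4 with quantile normalization. With the array median the median log2 changes were 0.11 for 20S alpha, -0.061 for constitutive beta, 0.53 for the immunoproteasome, 0.56 for activators and -0.69 for 20S chaperones. Without scaling they were 0.077, -0.093, 0.50, 0.53 and -0.73, with 19S at -0.17. Spike-ins gave 0.63 for the immunoproteasome and 0.66 for activators, and normexp 0.64 for activators. The array median, no scaling and no filter gave 38.5%, 35.3% and 70.9% of all calls as higher, against 56.0%. Without a filter 10759 genes were called, and the all-gene median moved by 0.20. Leaving out 1 array gave 15 to 21 proteasome genes higher and 2 to 4 lower, 4 of them without immature replicate 3. No called gene changed sign, while the constitutive beta and 19S medians did.

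Some pair tests passed after adjustment. They did so with quantile normalization at 0.77 for Psmb9 minus Psmb6, 0.23 for Psme1 minus Psme3 and 0.32 for Psme2 minus Psme3. Averaging the probes of a gene gave 0.29 for Psmb8 minus Psmb5, 0.83 for Psmb9 minus Psmb6 and 0.37 for Psme2 minus Psme3. With outlier spots kept it was 0.29, 0.83 and 0.23 for Psmb8 minus Psmb5, Psmb9 minus Psmb6 and Psme1 minus Psme3. In each of these 3 settings 3 pairs reached the smallest p. The cause of these differences was not tested.

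With the replicate number as a block, 16 proteasome genes were called higher and 3 lower, and 6606 of all genes were called. The labels do not say whether the numbers pair the samples. Naming genes by the array's own name column was not run, and normexp used the median spot intensity in place of the mean.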
